A study of Mus musculus with 6 samples.

Results

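The integrin and laminin subunit genes of the mouse comprise the receptors with which cells hold on to the extracellular matrix or to each other, and the chains of one of their main ligands. They were followed in crushed and sham-operated spinal cord. All genes named as an integrin alpha subunit (18), an integrin beta subunit (8) or a laminin alpha, beta or gamma chain (11) were taken. This gave 37 of the 36629 genes in the files. They were taken by name and not by value, though earlier results of these data were known when the set was chosen. Itgb2l, a gene related to Itgb2 whose name did not match, was left out. It was at 0.06 to 0.66 FPKM in SCI and 0.08 to 0.15 FPKM in sham libraries.

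The injured group (SCI, 3 libraries) had the cord exposed by laminectomy at T9 and T10, and a clip with a force of 60 g was closed on it for 5 s. The sham group (3 libraries) had the laminectomy without the crush. All animals were C57/BL6 mice aged 3 to 5 weeks with no transgene named, and RNA of the T8 to T12 segments was taken 3 days after surgery, so that a library holds a whole piece of cord with lesion centre and neighbouring tissue. The labels do not say whether each library came from 1 animal, and p-values measure the spread between these libraries.

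Integrins are pairs of 1 alpha and 1 beta subunit that span the membrane and link the outside to the actin cytoskeleton. Which alpha chain joins which beta chain decides the ligand. Pairs with the Itgb2 chain are made by leukocytes and microglia, where they bind cell adhesion molecules, complement and fibrinogen. Pairs with Itgb1 or Itgav bind fibronectin, vitronectin, collagens or laminins in most tissues. Laminins are trimers of an alpha, a beta and a gamma chain that form the sheet of basement membranes around blood vessels, at the pial surface and around Schwann cells.

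In the injured cord, 21 of the 37 genes were higher and 1 was lower than in the sham cord. Values are the authors' FPKM (sequenced fragments relative to the length of the gene and the size of the library), and a gene was tested when it reached 1 FPKM in at least 3 of the 6 libraries. The test was limma on log2(FPKM + 1) with an adjusted p under 0.05 over all 17435 tested genes. Across those genes, 26.7% were higher and 30.8% lower, 57.5% in either direction. Of the 37 genes, 30 were tested, and 3 of these (Itgal, Itgb7 and Itga2) passed the filter only through the SCI libraries, so that they had to be high there. The other 7 were too low to test. All libraries of one group lay above those of the other for 25 of the 37 genes with SCI higher and for 2 with SCI lower, where the shares over all tested genes were 30.7% and 36.9%, together 67.6%. These counts of 25 and 2 include genes too low to test, such as Itga11 and Lama3. The median log2 change of all 37, at any level, was 0.64. It was 0 over all 36629 genes in the files, also at any level, and -0.08 over the genes tested. Because a piece of cord is a mixture, fewer cells of a type and less RNA per cell cannot be told apart in any of these values.

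The libraries of a group resembled each other (Pearson r of log2 values 0.971 to 0.985 within SCI and 0.987 within sham) more than those of the other group (0.84 to 0.91), and some carried marks of other tissue. The 4 haemoglobin genes made up 0.656%, 6.16% and 0.211% of the FPKM in SCI replicates 1, 2 and 3, against 0.109% to 0.126% in sham libraries. The summed FPKM of 8 skeletal muscle markers was 510.9 in SCI replicate 3, with 52.4 and 13.1 in the other SCI libraries, against 20.7 to 126.5 in sham libraries. The 8 Schwann cell markers summed to 165.6 to 416.9 FPKM in SCI libraries, against 1667, 574.1 and 1687 in sham replicates 1, 2 and 3. Of the 21 genes called higher, 17 had their highest SCI value in replicate 2, and 16 of the 21 were called without that library. Of the other 5, Itgal, Itgb7 and Itga2 fell below the filter without it and Itgb8 and Lama5 did not pass.

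Promoters from 3 genes that rose are shown: Itgam, the leukocyte alpha chain with the largest log2 change, Itgax, its neighbour on the chromosome, and Itga5, the gene with the largest log2 change of all. They are RefSeq windows on GRCm38.p6, from 250 bases before to 50 after the start of the gene, written 5′ to 3′ on the gene's strand. Capitals mark the letters GAGGAA or their reverse complement, the core that the ETS factor PU.1 of myeloid cells is known to bind.
Itgam, chr7:128062390-128062689, plus strand: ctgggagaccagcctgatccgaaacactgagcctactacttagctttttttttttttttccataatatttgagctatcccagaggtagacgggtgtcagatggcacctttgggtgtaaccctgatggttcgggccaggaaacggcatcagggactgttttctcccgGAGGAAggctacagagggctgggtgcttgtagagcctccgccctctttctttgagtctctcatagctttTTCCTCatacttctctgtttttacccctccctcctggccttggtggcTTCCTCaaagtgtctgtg
Itgax, chr7:128129300-128129599, plus strand: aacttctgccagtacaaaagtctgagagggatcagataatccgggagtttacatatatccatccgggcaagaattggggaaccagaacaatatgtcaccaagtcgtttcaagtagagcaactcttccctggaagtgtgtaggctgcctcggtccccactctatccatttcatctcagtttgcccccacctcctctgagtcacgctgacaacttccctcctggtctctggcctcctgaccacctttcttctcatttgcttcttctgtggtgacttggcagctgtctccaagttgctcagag
Itga5, chr15:103366742-103367041, minus strand: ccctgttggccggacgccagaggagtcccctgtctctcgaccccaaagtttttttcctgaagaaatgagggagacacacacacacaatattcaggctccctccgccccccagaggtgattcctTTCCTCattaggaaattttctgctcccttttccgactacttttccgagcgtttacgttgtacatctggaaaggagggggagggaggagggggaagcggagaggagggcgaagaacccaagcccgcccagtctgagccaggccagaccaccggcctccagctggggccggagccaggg
The core occurred 3 times in the Itgam window, at positions 167, 236 and 283 counted from 1 at its 5′ end, once in that of Itga5, at position 124, and not in that of Itgax. A window was found for 23 of the 37 genes (26 windows), and 14 of the 26 held the core, against 28.3% of 32851 windows of all genes. Among the leukocyte integrins 2 of 4 windows held it (Itgam and Itgb7), among matrix-binding integrins 6 of 15 and among laminins 5 of 6, beside the window of Itga2b. The letters TGANTCA, a motif of AP-1, occurred in 3 of the 26 windows (Itgax, Itga9 and Itga3), against 7.81% of all windows, and GGGCGG, a motif of Sp1, in 12, against 35.7%. Both strands were searched, and such matches describe letters only.

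Leukocyte integrins were led by Itgb2 and Itgam, which together form the complement receptor known as CD11b and CD18. Itgam, the CD11b chain by which microglia, monocytes and neutrophils are commonly stained, was at 71.8, 118.8 and 66.9 FPKM in SCI replicates 1, 2 and 3, against 9.46, 7.09 and 6.78 FPKM in sham replicates 1, 2 and 3. Itgb2, the shared beta chain, was at 71.0, 96.0 and 70.8 FPKM in SCI libraries, against 6.57, 6.20 and 7.07 FPKM in sham libraries. No SCI library came near a sham library for either gene, and SCI replicate 2 was highest for both. The mean rose 11.0-fold for Itgam (log2 change 3.27, SE 0.23, limma adjusted p = 5.2e-05) and 12.0-fold for Itgb2 (log2 change 3.38, SE 0.13, adjusted p = 1.1e-05). Itgam overlaps Gm49368 on the same strand, which averaged 2.18 FPKM in SCI and 0.11 FPKM in sham libraries.

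The other alpha partners of Itgb2 were far less abundant. Itgal, the CD11a chain of lymphocytes and other leukocytes, was at 2.23, 3.97 and 3.09 FPKM in SCI libraries, against 0.63, 0.55 and 0.67 FPKM in sham libraries. Itgax, the CD11c chain of dendritic cells and of activated microglia, was at 2.81, 3.25 and 3.80 FPKM in SCI libraries, against 1.18, 0.98 and 1.46 FPKM in sham libraries. Itgad, the CD11d chain of macrophages, was at 0.35, 0.49 and 0.39 FPKM in SCI and 0.10, 0.40 and 0.35 FPKM in sham libraries and was not tested. Itgal and Itgax were separate between the groups and the values of Itgad overlapped. The log2 change was 1.32 for Itgal (SE 0.18, limma adjusted p = 9.6e-04) and 0.96 for Itgax (SE 0.15, adjusted p = 0.0016).

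Itgam, Itgax and Itgad lie next to each other on the plus strand of chromosome 7 (GRCm38, 128062640 to 128118491, 128129547 to 128150657 and 128154376 to 128205504), with 11.1 kb and 3.7 kb between them. Their identifiers in the files are ENSMUSG00000030786, ENSMUSG00000030789 and ENSMUSG00000070369. Per length, Itgam made up 92.4% ± 1.94 of the FPKM of the 4 alpha partners in SCI libraries and 78.3% ± 5.00 in sham libraries (SD, n = 3 each). Itgax made up 3.78% ± 1.28 in SCI and 12.3% ± 2.98 in sham libraries. The 4 partners together had 1.09, 1.32 and 1.05 times the FPKM of Itgb2 in SCI libraries and 1.73, 1.45 and 1.31 times in sham libraries.

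The remaining leukocyte chains, which belong to pairs with Itgb1 or Itgb7, were at no more than 6.02 FPKM in any library. Itgb7, the beta chain of gut-homing lymphocytes that is also made by other leukocytes, was at 5.01, 6.02 and 4.57 FPKM in SCI libraries, against 0.68, 0.99 and 0.99 FPKM in sham libraries (log2 change 1.71, SE 0.14, limma adjusted p = 1.1e-04). Itga4, the chain that binds VCAM-1 and fibronectin, was at 1.71, 2.90 and 2.33 FPKM in SCI libraries, against 1.54, 1.38 and 1.56 FPKM in sham libraries. Its groups did not overlap, but the log2 change of 0.40 (SE 0.16) did not pass (adjusted p = 0.074). It did pass without SCI replicate 1 (0.53, adjusted p = 0.031), and just passed without limma's mean-variance trend. Itgae, the CD103 chain of resident T cells and some dendritic cells, was at 0.31, 0.73 and 0.67 FPKM in SCI and 0.80, 0.73 and 1.04 FPKM in sham libraries and was not tested.

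**Figure D1:**
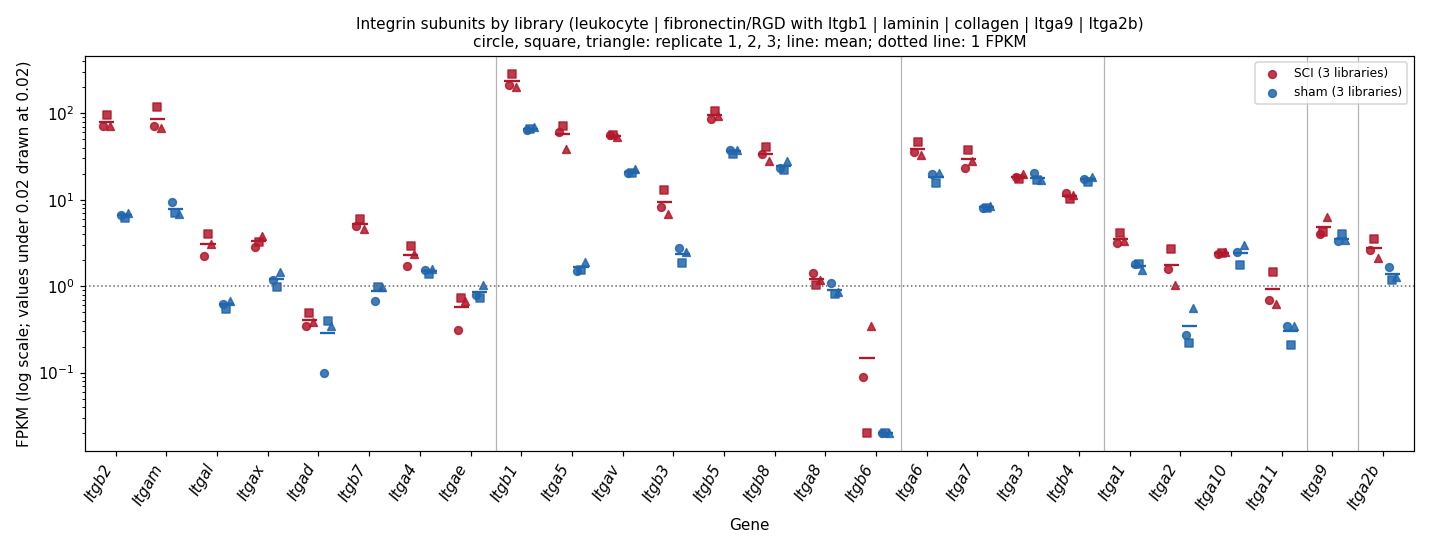
FPKM of the 26 integrin subunit genes on a log scale, with SCI libraries in red to the left of sham libraries in blue, 1 mark per library and a line at the group mean. Itgb2, Itgam and Itga5 show the widest gap between the groups, and Itgb4 is the gene whose SCI libraries all lie below its sham libraries.

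Of the 8 leukocyte integrin genes, 5 of 6 tested were higher and none was lower, and the median log2 change of all 8 was 1.14 (range -0.25 to 3.38). Among the 5, Itgal and Itgb7 passed the filter only through SCI libraries, so that they had to be high there. Over all tested genes, 26.7% were higher and 30.8% lower, and the marker counts below stand beside the same shares. Summed markers of several leukocytes were also higher in SCI than in sham libraries. The 8 microglial markers summed to 639.5, 802.0 and 793.1 FPKM in SCI libraries, against 195.9 to 213.9 FPKM in sham libraries, with 7 of 8 higher. The 8 markers of monocytes and macrophages summed to 1370, 2422 and 1635 FPKM in SCI libraries, against 118.6 to 163.6 FPKM in sham libraries, with 8 of 8 higher. Of those 8, 5 (Arg1, Ly6c2, Ms4a7, Plac8 and Ccr2) had no sham library at 1 FPKM and passed the filter only through SCI libraries, so that they had to be high there. The 8 neutrophil markers summed to 288.0, 679.5 and 157.1 FPKM in SCI libraries, against 28.2 to 53.1 FPKM in sham libraries, with 6 of 8 higher, of which Cxcr2 passed the filter only through SCI libraries. The 8 markers of T and NK cells summed to 4.91 to 7.20 FPKM in SCI and 5.50 to 7.41 FPKM in sham libraries with none higher, and Cd3d, Cd3e, Cd3g, Cd4 and Cd8a were under 0.5 FPKM in every library. The part of each cell type in the levels of Itgam, Itgb2, Itgal, Itgax and Itgb7 was not tested.

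Matrix-binding integrins were led by Itga5, the chain that with Itgb1 forms the classical fibronectin receptor. Itga5 was at 61.4, 70.7 and 38.4 FPKM in SCI replicates 1, 2 and 3, against 1.5, 1.52 and 1.92 FPKM in sham libraries. Its mean was 34.5-fold higher, the largest change among the 37 genes (log2 change 4.41, SE 0.21, limma adjusted p = 1.5e-05). Itgb1, the beta chain shared by most matrix-binding pairs and the most abundant gene of the 37 in both groups, was at 213.6, 284.0 and 202.0 FPKM in SCI libraries, against 63.7, 65.0 and 69.6 FPKM in sham libraries (3.53-fold, log2 change 1.79, SE 0.13, adjusted p = 6.7e-05). For both genes every SCI library was above every sham library. Itga5 (ENSMUSG00000000555) lies on the minus strand of chromosome 15 from 103344286 to 103366763. The microRNA gene Mir6963 lies within it and averaged 2.26 FPKM in SCI libraries and was listed at 0 in sham libraries.

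The chains that bind the RGD sequence of vitronectin, osteopontin and latent TGF-beta are Itgav and its beta partners. Itgav, the common alpha chain of these pairs, was at 56.2, 55.9 and 53.3 FPKM in SCI libraries, against 20.2, 20.4 and 22.7 FPKM in sham libraries (log2 change 1.34, SE 0.08, limma adjusted p = 2.4e-05). Itga5 had 1.09, 1.27 and 0.721 times the FPKM of Itgav in SCI libraries and 0.0742, 0.0744 and 0.0847 times in sham libraries. Thus the fibronectin chain, a small fraction of Itgav in sham cord, was at a similar level to it in SCI cord.

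Of the beta partners of Itgav, Itgb5, a vitronectin receptor chain, was at 84.8, 105.2 and 93.2 FPKM in SCI libraries, against 37.8, 33.7 and 37.2 FPKM in sham libraries (log2 change 1.35, SE 0.10, limma adjusted p = 6.3e-05). Itgb3, shared with the platelet receptor and also made by macrophages and endothelium, was at 8.26, 12.8 and 6.79 FPKM in SCI libraries, against 2.79, 1.85 and 2.49 FPKM in sham libraries (log2 change 1.58, SE 0.22, adjusted p = 0.0011). Both genes were separate between the groups. Itgb8, the chain that activates latent TGF-beta and is made by astrocytes and other glia, was at 34.2, 40.3 and 28.1 FPKM in SCI libraries, against 23.2, 22.1 and 28.1 FPKM in sham libraries. SCI replicate 3 and sham replicate 3 of Itgb8 had the same value, and the log2 change was 0.46 (SE 0.15, adjusted p = 0.031).

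The call on Itgb8 was not stable. It ended without SCI replicate 1 (log2 change 0.45, limma adjusted p = 0.074), SCI replicate 2 (0.34, adjusted p = 0.065), sham replicate 1 (0.43, adjusted p = 0.090) or sham replicate 2 (0.39, adjusted p = 0.099). With all libraries it also ended without mitochondrial and haemoglobin genes (adjusted p = 0.051), when low genes were kept (adjusted p = 0.067) and with a replicate block (adjusted p = 0.068). Itga8, a partner of Itgb1 in smooth muscle and mesenchymal cells, was at 1.43, 1.03 and 1.18 FPKM in SCI and 1.08, 0.81 and 0.85 FPKM in sham libraries and did not pass (log2 change 0.21, adjusted p = 0.27). Itgb6, an epithelial chain, was at 0.09, 0 and 0.35 FPKM in SCI libraries and listed at 0, 0 and 0.02 FPKM in sham libraries. In all, the fibronectin and RGD-binding list had 5 of 6 tested genes higher of its 7, with a median log2 change of 1.34. Among all tested genes 26.7% were higher.

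Laminin-binding integrins went in both directions. Itga7, a laminin receptor chain of muscle, vessel walls and regrowing neurons, was at 23.2, 37.5 and 28.3 FPKM in SCI libraries, against 8.05, 8.11 and 8.49 FPKM in sham libraries (3.61-fold, log2 change 1.71, SE 0.16, limma adjusted p = 1.9e-04). Without SCI replicate 3, the library with most skeletal muscle RNA, its log2 change was 1.73. The part of muscle in the level of Itga7 was not tested. Itga6, which pairs with Itgb1 or Itgb4, was at 35.6, 47.0 and 32.9 FPKM in SCI libraries, against 19.8, 15.5 and 20.3 FPKM in sham libraries (log2 change 1.01, SE 0.16, adjusted p = 0.0015). For both genes the groups did not overlap.

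Itgb4 was the 1 gene of the 37 that fell. It encodes the beta chain that joins Itga6 in the hemidesmosomes of epithelia and in myelinating Schwann cells. It was at 12.1, 10.1 and 11.4 FPKM in SCI libraries, against 17.2, 16.1 and 18.2 FPKM in sham libraries, with no overlap (log2 change -0.58, SE 0.10, limma adjusted p = 0.0019). The value ranged from -0.63 to -0.52 when single libraries were left out. Against 30.8% lower and 26.7% higher over all tested genes, 4 of the 8 Schwann cell markers were lower and 2 higher. Their sum in sham replicate 2, at 574.1 FPKM, was well below that of the other sham libraries, and Itgb4 there, at 16.1 FPKM, was the lowest of the sham libraries and above all SCI libraries. The part of Schwann cells in the level of Itgb4 was not tested. Itgb1 had 17.7, 28.2 and 17.8 times the FPKM of Itgb4 in SCI libraries and 3.70, 4.03 and 3.83 times in sham libraries.

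Itga3, which binds the Lama5 and Lama3 laminins, was at 18.2, 17.5 and 19.7 FPKM in SCI and 20.2, 16.8 and 16.9 FPKM in sham libraries (log2 change 0.04, SE 0.10, limma adjusted p = 0.74). Its groups overlapped, and the sign turned without SCI replicate 3 (-0.004) or sham replicate 2 (-0.001). Its share of all alpha chain FPKM was 6.10% ± 1.39 in SCI libraries and 19.9% ± 1.65 in sham libraries (SD, n = 3 each).

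Collagen-binding chains stayed below 5 FPKM in every library. Itga1, which prefers collagen IV of basement membranes, was at 3.17, 4.13 and 3.29 FPKM in SCI libraries, against 1.81, 1.80 and 1.52 FPKM in sham libraries (log2 change 0.74, SE 0.13, limma adjusted p = 0.0030). Pelo, a gene at 15.2 FPKM in SCI and 13.3 FPKM in sham libraries on average, lies within Itga1 on the same strand, so that reads could be shared. Itga2, which binds fibrillar collagen and lies 20995 bases from Itga1 on chromosome 13, was at 1.58, 2.71 and 1.03 FPKM in SCI libraries, against 0.27, 0.22 and 0.56 FPKM in sham libraries (log2 change 1.00, SE 0.25, adjusted p = 0.011). Both genes were higher in every SCI library. Itga11, a fibroblast collagen receptor, was at 0.69, 1.46 and 0.63 FPKM in SCI and 0.35, 0.21 and 0.35 FPKM in sham libraries and was not tested. Itga10, a cartilage collagen receptor, had overlapping groups at 2.33 to 2.47 FPKM in SCI and 1.76 to 2.99 FPKM in sham libraries. Its log2 change was 0.02 (adjusted p = 0.93) and turned to -0.12 without sham replicate 2 and to -0.09 under quantile normalization.

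Itga9, which binds tenascin-C and osteopontin, was at 4.04, 4.22 and 6.38 FPKM in SCI libraries, against 3.29, 3.97 and 3.40 FPKM in sham libraries. Its groups did not overlap, and it did not pass (log2 change 0.35, SE 0.17, limma adjusted p = 0.11). Its log2 change was 0.175 without SCI replicate 3. Itga9 overlaps Gm10157 and Gm2415 on the other strand. They averaged 22.25 and 4.07 FPKM in SCI and 24.75 and 6.29 FPKM in sham libraries. Itga2b, the CD41 chain that pairs with Itgb3 in the fibrinogen receptor of platelets, was at 2.63, 3.50 and 2.09 FPKM in SCI libraries, against 1.66, 1.17 and 1.29 FPKM in sham libraries (log2 change 0.64, SE 0.18, adjusted p = 0.017). That call ended without sham replicate 2 (0.58, adjusted p = 0.056) or sham replicate 3 (0.62, adjusted p = 0.052). The 6 markers of platelets and megakaryocytes summed to 279.2, 401.2 and 119.3 FPKM in SCI libraries, against 4.89 to 10.9 FPKM in sham libraries, and in SCI libraries nearly all of it was Pf4 and Ppbp. The other 4, Gp1ba, Gp1bb, Gp9 and Treml1, stayed between 0 and 2.9 FPKM, and their part in Itga2b was not tested.

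Side by side, the leukocyte and the matrix-binding integrins covered wide and overlapping ranges. The 8 leukocyte genes had a median log2 change of 1.14 (-0.25 to 3.38), and the 17 matrix-binding genes had one of 0.74 (-0.58 to 4.41), a difference of 0.40. Of the 17 matrix-binding genes, 15 were tested, with 10 higher and 1 lower, where 26.7% of all tested genes were higher and 30.8% lower. Among the 10, Itga2 passed the filter only through SCI libraries, so that it had to be high there. The largest rise of each class was that of Itgb2 and of Itga5. The difference of the medians was not tested. With a pseudocount of 0.1 in place of 1 it was 0.71, and with one of 0.01 it was 0.48.

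**Figure D2:**
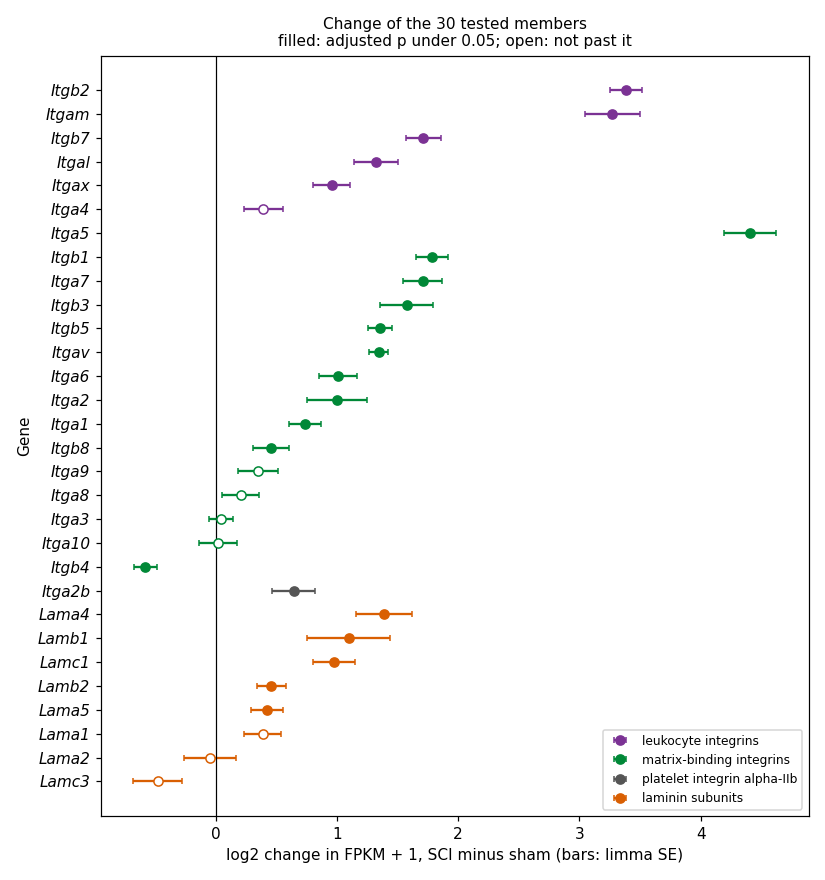
Log2 change in FPKM + 1 (SCI minus sham) with limma's standard error for the 30 tested genes, by class, filled where the adjusted p was under 0.05. Itga5 at 4.41, Itgb2 at 3.38 and Itgam at 3.27 lie apart from the rest, and Itgb4 at -0.58 is the filled point below 0.

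Levels per length changed the make-up of the beta chains. Over the 8 beta genes, Itgb2 made up 16.9% ± 0.391 of the FPKM in SCI libraries and 4.30% ± 0.0427 in sham libraries. Itgb4 made up 2.45% ± 0.550 in SCI and 11.2% ± 0.146 in sham libraries. Itgb8 made up 7.33% ± 0.620 in SCI and 15.9% ± 1.14 in sham libraries (SD, n = 3 each). Among alpha chains, Itgam took 27.1% ± 3.74 and Itga5 18.1% ± 3.44 in SCI libraries, against 8.60% ± 1.38 and 1.83% ± 0.236 in sham libraries. The SCI and sham libraries did not overlap for these 5 shares, and with 3 against 3 an exact two-sided permutation test cannot go below p = 0.1. A share falls when others in its family rise, as that of Itgb8 did while its level was higher.

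**Figure D3:**
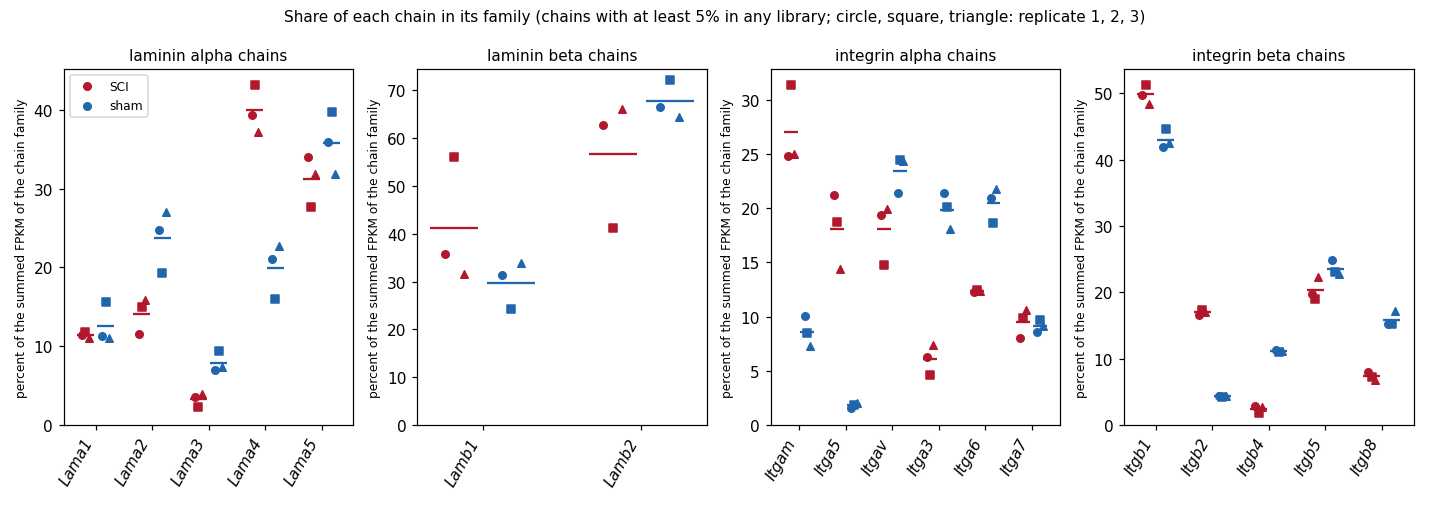
Percent of the summed FPKM of a chain family taken by each chain, for laminin alpha and beta chains and integrin alpha and beta chains, 1 mark per library with a line at the group mean, SCI in red to the left of sham in blue. Lama4, Itgam, Itga5, Itgb1 and Itgb2 take larger shares in all 3 SCI libraries than in any sham library. Lama2, Lama3, Itga3, Itga6, Itgav, Itgb4, Itgb5 and Itgb8 take smaller ones, though the levels of Itga6, Itgav and Itgb5 were higher.

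Of the 11 laminin chain genes, 8 were tested, with 5 higher and none lower, and the median log2 change of all 11 was 0.43 (range -0.48 to 1.39). Over all tested genes, 26.7% were higher and 30.8% lower. Lamc1, the gamma chain of nearly all laminin trimers and the most abundant laminin gene, was at 33.9, 40.5 and 29.8 FPKM in SCI libraries, against 17.4, 13.6 and 20.8 FPKM in sham libraries (2.01-fold, log2 change 0.98, SE 0.17, limma adjusted p = 0.0025). Lama4, the alpha chain of endothelial and pericyte basement membranes, was at 8.40, 10.8 and 6.46 FPKM in SCI libraries, against 3.11, 1.66 and 3.21 FPKM in sham libraries. This was the largest laminin rise (3.22-fold, log2 change 1.39, SE 0.23, adjusted p = 0.0021). Neither gene had a sham library as high as its lowest SCI library. Lamc1 (ENSMUSG00000026478) lies on the minus strand of chromosome 1 from 153218922 to 153332786.

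Of the beta chains, Lamb1 and Lamb2 rose. Lamb1 was at 13.6, 26.3 and 10.5 FPKM in SCI libraries, against 8.07, 4.48 and 8.41 FPKM in sham libraries (log2 change 1.10, SE 0.34, limma adjusted p = 0.028). Lamb2, the beta chain of vessel, pial and synaptic basement membranes, was at 23.9, 19.3 and 21.9 FPKM in SCI libraries, against 17.1, 13.4 and 16.03 FPKM in sham libraries (log2 change 0.46, SE 0.12, adjusted p = 0.013). In both genes SCI and sham libraries did not overlap, but SCI replicate 2 was the highest for Lamb1 and the lowest of its group for Lamb2. Lamb1 had 1.36 times the FPKM of Lamb2 in SCI replicate 2, with 0.570 and 0.478 times in SCI replicates 1 and 3, against 0.471, 0.335 and 0.525 times in sham libraries. Without SCI replicate 2 the log2 change of Lamb1 was 0.74 (adjusted p = 0.048), and its call ended without sham replicate 2 (0.85, adjusted p = 0.085). With all libraries it also ended when low genes were kept (adjusted p = 0.071) and with a replicate block (adjusted p = 0.061).

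Among the other alpha chains, Lama5, of mature vessels and of the pia, was at 7.26, 6.92 and 5.53 FPKM in SCI libraries, against 5.29, 4.11 and 4.49 FPKM in sham libraries (log2 change 0.43, SE 0.13, limma adjusted p = 0.028). The call ended without SCI replicate 1 (0.36, adjusted p = 0.090), SCI replicate 2 (0.39, adjusted p = 0.067), sham replicate 2 (0.36, adjusted p = 0.091) or sham replicate 3 (0.41, adjusted p = 0.079), and, with all libraries, under quantile normalization (0.31, adjusted p = 0.075) or when low genes were kept (adjusted p = 0.067). Lama1, which the meninges make for the pial surface, was at 2.44, 2.96 and 1.91 FPKM in SCI and 1.66, 1.61 and 1.55 FPKM in sham libraries. Its groups were apart, but its log2 change of 0.39 did not pass (adjusted p = 0.058). It did pass without SCI replicate 3 (0.50, adjusted p = 0.030) and, with all libraries, without the mean-variance trend (adjusted p = 0.035).

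Lama2, the alpha chain of Schwann cells, muscle and astrocyte end-feet, was at 2.45, 3.73 and 2.75 FPKM in SCI and 3.65, 2.00 and 3.82 FPKM in sham libraries. The groups overlapped and the log2 change was -0.05 (SE 0.22, limma adjusted p = 0.87). It was 0.05 without SCI replicate 1 or sham replicate 1, 0.08 without sham replicate 3 and 0.02 under median-ratio scaling. Lama4 had 3.43, 2.90 and 2.35 times the FPKM of Lama2 in SCI libraries, against 0.852, 0.830 and 0.840 times in sham libraries. In the laminin alpha family, Lama4 made up 40.0% ± 3.01 in SCI and 20.0% ± 3.50 in sham libraries, and Lama2 14.1% ± 2.30 in SCI and 23.7% ± 3.99 in sham libraries (SD, n = 3 each). Of these 2 chains, the sham libraries thus held about as much Lama2 as Lama4, and the SCI libraries mostly Lama4. Lama5 made up 31.2% ± 3.24 in SCI and 35.8% ± 3.93 in sham libraries, with overlapping groups. In every sham library it was the largest share of the alpha family.

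Lamc3, a gamma chain of nerve and other tissues, was at 1.80, 1.16 and 1.67 FPKM in SCI and 3.06, 1.70 and 2.98 FPKM in sham libraries. Its groups overlapped at sham replicate 2, and the log2 change of -0.48 did not pass (SE 0.20, limma adjusted p = 0.077). It did pass without sham replicate 2 (-0.67, adjusted p = 0.021) and, with all libraries, under quantile normalization (-0.57, adjusted p = 0.031) and with a replicate block (adjusted p = 0.038). Lama3 and Lamb3, chains known from epithelia, were near or below 1 FPKM and were not tested. Lama3 was at 0.76, 0.58 and 0.68 FPKM in SCI and 1.03, 0.97 and 1.03 FPKM in sham libraries. Lamb3 was at 0.56, 1.32 and 0.72 FPKM in SCI and 0.52, 0.68 and 0.46 FPKM in sham libraries. The SCI libraries of Lama3 all lay below its sham libraries, and the groups of Lamb3 overlapped. Lamb3 overlaps Hsd11b1 and G0s2 on the other strand, which averaged 8.60 and 11.1 FPKM in SCI and 20.8 and 13.1 FPKM in sham libraries. Gm37691 overlaps Lamb3 on the same strand and averaged 2.46 FPKM in SCI and 3.38 FPKM in sham libraries.

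**Figure D4:**
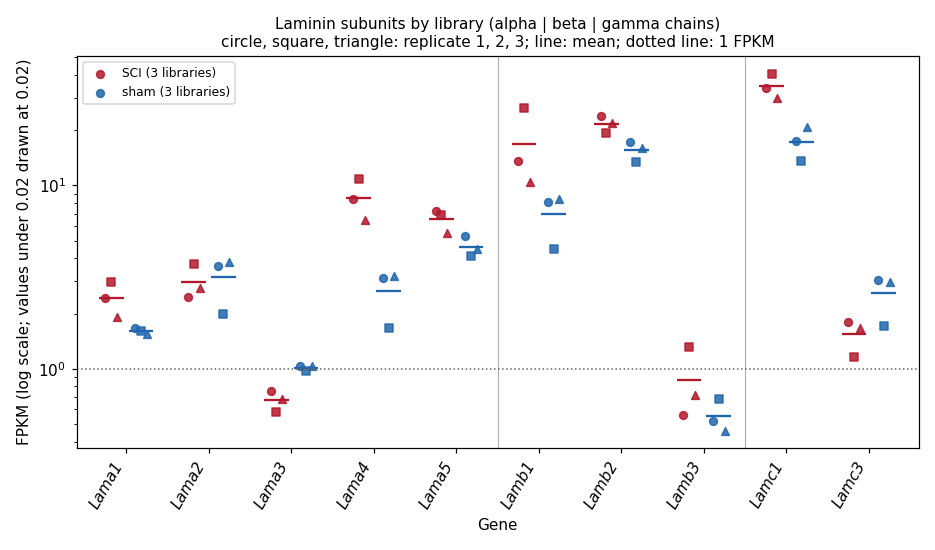
FPKM of laminin chain genes on a log scale, with SCI libraries in red to the left of sham libraries in blue, 1 mark per library and a line at the group mean. Lama4, Lamb1 and Lamc1 are higher in all 3 SCI libraries, and sham replicate 2 (blue squares) is the lowest sham library for 8 of the genes drawn.

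Sham replicate 2 was the lowest sham library for 8 of the 11 laminin genes and 16 of the 26 integrin genes. Its Schwann cell marker sum was also the lowest of the sham libraries. So was its sum of monocyte and macrophage markers, at 118.6 FPKM against 162.2 and 163.6 FPKM. The same held for its fibroblast and meningeal, platelet, ependymal, astrocyte, pericyte, skeletal muscle and red blood cell sums. It did not hold for its microglial, neutrophil, T and NK cell, endothelial, oligodendrocyte or neuron sums. Summed markers of vessels were also higher in SCI than in sham libraries, though the endothelial sum was lowest of the SCI libraries in replicate 2. The 8 endothelial markers summed to 373.5, 325.9 and 331.5 FPKM in SCI libraries, against 174.9 to 188.7 FPKM in sham libraries, with 6 of 8 higher and 1 lower. The 8 markers of pericytes and smooth muscle summed to 259.5 to 318.4 FPKM in SCI libraries, against 129.0 to 131.6 FPKM in sham libraries, with 4 of 8 higher and 1 lower. The 8 fibroblast and meningeal markers summed to 529.5 to 635.1 FPKM in SCI and 595.3 to 684.6 FPKM in sham libraries, with 5 of 8 higher and 1 lower. The lower gene, Ptgds, made up most of the sum in sham libraries. It was at 286.2, 152.1 and 258.5 FPKM in SCI libraries, against 562.8, 537.3 and 529.3 FPKM in sham libraries. The 5 higher genes were Pdgfra, Dcn, Lum, Col1a1 and Col1a2. Beside these marker counts, 26.7% of all tested genes were higher and 30.8% lower. The part of vessel, fibroblast and meningeal cells in the laminin levels was not tested.

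Many ligand genes were higher in SCI libraries too. Of 12 matrix ligand genes, 10 were higher, against 26.7% of all tested genes, with a median log2 change of 2.69 over the 12. Among the 10, Postn passed the filter only through SCI libraries. Thbs1 (thrombospondin-1) was at 207.8, 648.9 and 162.9 FPKM in SCI libraries, against 3.82, 2.87 and 5.44 FPKM in sham libraries (log2 change 5.83, SE 0.49, limma adjusted p = 1.1e-04). Tnc, the tenascin-C bound by Itga9, had a log2 change of 4.95, and Spp1, the osteopontin bound by Itgav pairs, one of 4.004. Fn1, the fibronectin bound by Itga5, was at 212.8, 349.7 and 181.6 FPKM in SCI libraries, against 12.8, 9.50 and 14.1 FPKM in sham libraries (log2 change 4.21, SE 0.25, adjusted p = 2.7e-05). Edil3 was the 1 that fell (-1.27). Vtn, the gene of vitronectin, was at 67.9, 36.2 and 54.7 FPKM in SCI and 73.6, 64.8 and 94.7 FPKM in sham libraries. Its groups overlapped and it did not pass (log2 change -0.57, limma adjusted p = 0.071). Collagen genes were higher in 5 of 5, led by Col3a1 (3.75) and Col1a1 (2.64).

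Of 10 genes for ligands of the leukocyte integrins, 6 were tested, with 4 higher and 1 lower. The shares over all tested genes were 26.7% higher and 30.8% lower. Icam1, the endothelial and leukocyte ligand of Itgal and Itgam pairs, was at 10.2, 11.1 and 13.6 FPKM in SCI libraries, against 2.66, 2.12 and 2.31 FPKM in sham libraries (log2 change 1.903, SE 0.13, limma adjusted p = 4.9e-05). Icam2 had a log2 change of 1.31, the complement protein C3 one of 0.98, and Vcam1, the ligand of Itga4 pairs, one of 0.38 (adjusted p = 0.039). Icam5, an adhesion molecule of neuronal dendrites, fell (-0.91). Madcam1, the gut ligand of Itgb7 pairs, was under 0.5 FPKM in every library, and so was Fga, while Fgb reached 1.89 FPKM in SCI replicate 2.

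Of 9 genes for partners of laminin in the basement membrane, 5 were higher, with Col4a1 (log2 change 2.16) and Nid2 (2.00) leading, and Agrn was lower (-0.43). Sparc, the most abundant of them, was at 866.5 to 938.2 FPKM in SCI and 600.0 to 895.8 FPKM in sham libraries and did not pass (0.35, limma adjusted p = 0.090). Among laminin receptors other than integrins, 3 of 5 were higher: the syndecans Sdc1 (3.11) and Sdc4 (1.15), and Rpsa (1.17), a ribosomal protein also described as a laminin receptor. Dag1 (0.56, adjusted p = 0.061) and Bcam (0.36, adjusted p = 0.24) did not pass. For both lists, the shares over all tested genes were 26.7% higher and 30.8% lower.

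Genes on a list of integrin activators, adaptors and other partner proteins, not all of which switch integrins on, moved in both directions. Of the 26 genes on this list, 25 were tested, with 15 higher and 3 lower and a median log2 change of 0.91. Over all tested genes, 26.7% were higher and 30.8% lower. Fermt3, the kindlin of blood cells, was at 12.6, 19.2 and 13.7 FPKM in SCI libraries, against 1.95, 1.76 and 1.95 FPKM in sham libraries (log2 change 2.46, SE 0.16, limma adjusted p = 3.8e-05). Fermt2, the kindlin of most other tissues, did not pass (0.20, adjusted p = 0.098). Parvg, the parvin of blood cells, had a log2 change of 2.38, and the widely made Parva fell by 0.24 on the log2 scale. Tln1, the talin of most cells, had a log2 change of 1.34, and Tln2, the talin of neurons and muscle, fell by 0.87. The third gene that fell was Rasgrp2 (-0.89), an activator of the GTPase Rap1. The most abundant genes were Cd9, a tetraspanin that binds integrins (1.78), and Rap1b (1.66).

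Genes that hold latent TGF-beta for release by Itgb8 and Itgav pairs were higher in 4 of 4, against 26.7% of all tested genes. Nrros, which holds it on microglia and macrophages, was at 11.0, 15.7 and 13.5 FPKM in SCI libraries, against 2.27, 1.59 and 2.57 FPKM in sham libraries (log2 change 2.19, SE 0.17, limma adjusted p = 7.8e-05). Lrrc32, its counterpart on other cells, had a log2 change of 2.21, and the matrix proteins Ltbp1 and Ltbp3 had 1.14 and 0.34. In these libraries Tgfb1 itself was at 15.9, 20.98 and 14.2 FPKM in SCI libraries, against 1.97, 2.05 and 1.63 FPKM in sham libraries (log2 change 2.63, SE 0.15, adjusted p = 2.7e-05).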

How the data were processed

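Bulk RNA-seq of 3 SCI and 3 sham libraries was used, each named by its group and the number in its title. Per the labels' protocols, polyadenylated RNA with a RIN above 7 was sequenced from libraries whose second strand was marked with dUTP and whose adapters carried unique molecular identifiers. Per the submitters' processing notes the build was mm9, and the tools, listed without roles, included StringTie 1.3.4d, HISAT2 2.0.4, cutadapt 1.9 and UMI-tools. The deposited values were FPKM to 2 decimals, per the file headers. How strand and identical molecular identifiers were handled is not given in the sources used here. Coordinates in the files are those of GRCm38: of 36502 identifiers also in GENCODE M21, 33485 (91.7%) stood at identical positions there, as did 34 of the 37 genes described.

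FPKM hold no counts, and depth is unknown. No common step of whole reads was found in low genes: at most 3.79% to 4.81% of 3290 to 3439 short genes shared a log2 ratio within 0.05. FPKM summed to 716215 to 734791 per library, with 16774 to 17202 genes at 1 FPKM or more. A count test was therefore not run. limma 3.58.1 in R 4.3.3 was used with a mean-variance trend, group as its term and Benjamini-Hochberg adjustment over 17435 genes. It was tested on simulated data. Changes are SCI minus sham on log2(FPKM + 1), which understates the change of low genes.

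The genes, lists and alternatives were chosen with earlier results of these data known. Every integrin and laminin gene was named but 1, which is counted and not reported here. From each ligand, adaptor and receptor list, the 2 called genes that changed most were named, and the 2 with the highest FPKM. Further genes of those lists (such as Fn1, Vtn, Fermt2, Parva, Tln1, Tln2, Tgfb1 and the ones that fell) were named after their values were seen. Replicate numbers did not pair the libraries. Promoter sequences are RefSeq's on GRCm38.p6.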

Additional observations from a re-analysis of the deposited data

How the results depend on the processing

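Under 15 alternatives (3 normalizations, 2 pseudocounts, 2 filters, no variance trend, a replicate block and each of 6 libraries left out), the count of higher genes stayed between 15 and 23, against 21. With single libraries left out it was 16 to 20, and the count of lower genes was 1 to 2. The lower count was 2 in place of 1 under quantile normalization and with the replicate block, by the addition of Lamc3. Of the 22 called genes, 18 passed in every alternative that tested them, and none changed direction. The 4 others were Itgb8, Itga2b, Lama5 and Lamb1. Itgal, Itgb7 and Itga2 fell below the filter when any SCI library was left out, and could not be tested there. With a pseudocount of 0.1, the difference between leukocyte and matrix-binding medians was 0.708 in place of 0.402, and the medians were 1.752 and 1.044 in place of 1.139 and 0.737. With 0.01 the medians were 1.861 and 1.378, and the difference was 0.482. A smaller pseudocount by its construction widens the change of low genes. With single libraries left out the difference ranged from 0.318 to 0.506, and the median of the laminin genes, 0.425, from 0.364 to 0.508.

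Signs turned for 3 genes that were not called. They were Itga10 (-0.087 under quantile normalization, and -0.124 to 0.142 with single libraries left out), Itga3 (-0.004 to 0.125 with single libraries left out) and Lama2 (0.019 under median-ratio scaling, and -0.265 to 0.077 with single libraries left out). The cause was not tested. The replicate block gave 19 higher and 2 lower genes, and over all genes 4398 higher and 5045 lower, against 4653 and 5371 without it. Same-numbered libraries did not deviate together (r = -0.008, -0.039 and 0.022), so the numbers are not taken as pairs. FPKM give no depth, so no limit of detection can be set for the 7 genes too low to test.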
